A study of Callithrix jacchus with 3 samples.

Results

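The 536 small RNAs described here were far more abundant among the RNAs recovered with MARWI than in total small RNA of the marmoset testis. MARWI, the protein that was precipitated, is the PIWI protein of marmosets that corresponds to MIWI in mice. A sequence was included if it was 26 to 32 nt long, had at least 1000 reads after immunoprecipitation of MARWI (MARWI-IP), and held a share of the MARWI-IP reads at least 8 times its share of the total small RNA reads. Shares were taken over all reads of 24 to 33 nt in each library, and 0.5 read was added to the total count so that a count of 0 still gave a ratio. Of 12450 sequences with the required length and MARWI-IP reads, 536 met the ratio, which is 4.31%. The same ratio chose them, so their height above 8 is a description and no result.

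MARWI-IP came from testis lysate of wild-type common marmosets (Callithrix jacchus) aged 41 and 51 months, which the labels count as 2 replicates and which were deposited as 1 column of counts. Total small RNA came from the testis of 1 wild-type animal aged 41 months, after purification by size on a gel. No control precipitation, with another antibody or with none, was analysed here. With 1 library per group there is no replicate error and no test between libraries, and the intervals given are exact 95% binomial intervals for counting error alone. The libraries carried no molecular identifiers as far as the labels say, so reads are not independent molecules. The animals, the size selection and the precipitation all differ between the libraries, and their parts in a ratio cannot be told apart.

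PIWI proteins are Argonaute-family proteins of the germ line. They bind piRNAs, small RNAs longer than microRNAs, and use them to find complementary RNA, a route by which transposons are silenced in the germ line of animals. The 5′ end of a piRNA sits in a pocket of the PIWI protein that in many species favours uridine, and the 3′ end is trimmed and then methylated. A long precursor can be cut into many piRNAs, so that a piRNA locus gives sequences which overlap or differ by a base or a few at either end. Where a PIWI protein cuts a target RNA, the cut end can become the 5′ end of a new piRNA. Both then share complementary 5′ ends and the new piRNA has A at position 10, a pattern known from transposon piRNAs of flies and mice.

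The most-read of the 536 sequences are printed first because they hold a large part of the reads. In each, written 5′ to 3′ with T for U as the tables have it, the capitals mark positions 1, 5 and 10.
Most-read sequence, 29 nt: TtgaTggtaAttggaagagcatcttgggt
Same start, 28 nt: TtgaTggtaAttggaagagcatcttggg
Same start, 30 nt: TtgaTggtaAttggaagagcatcttgggtg
Same start, 27 nt: TtgaTggtaAttggaagagcatcttgg
Same start, 26 nt: TtgaTggtaAttggaagagcatcttg
Rank 3, 30 nt: TtccTtgagGactctaacgttgtcataagg
Rank 4, 29 nt: TattTgtcaGtgtaaagtgttctaagctg
Rank 7, 29 nt: TgttAccatGcattctgtctacgactggt
Rank 9, 30 nt: GccaAtgttCacagaattcttgttcactgc
Rank 10, 31 nt: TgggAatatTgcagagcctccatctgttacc

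The most-read sequence had 729827 reads in MARWI-IP against 8716 in total small RNA. These are 0.662% of the 110209593 MARWI-IP reads and 0.0681% of the 12792323 total reads of 24 to 33 nt, a ratio of 9.72 (95% interval 9.52 to 9.93). All 5 lengths of 26 to 30 nt with this start met the rule, and together they held 1076889 MARWI-IP reads, 32.2% of the MARWI-IP reads of the 536 sequences. Its 28-nt form had 149281 MARWI-IP reads against 1774 total reads, and its 30-nt form had 100930 and 1458. The ratio was 9.77 (9.32 to 10.2) for 28 nt and 8.04 (7.63 to 8.47) for 30 nt. A single 5′ end thus supplied a large share of the reads, and it weighs heavily in any value weighted by reads.

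The sequence at rank 3 had 135541 reads in MARWI-IP against 1140 in total small RNA, a ratio of 13.8 (13.02 to 14.64). At rank 4, 103209 reads in MARWI-IP stood against 1278 in total small RNA, a ratio of 9.37 (8.87 to 9.91). Rank 7 had 68315 reads in MARWI-IP against 885 in total small RNA. These 3 have U at the first position, like most piRNAs, while the sequence at rank 9 begins with G. It had 45199 MARWI-IP reads and 433 total reads, a ratio of 12.1 (11.02 to 13.35). The 31-nt sequence at rank 10 had 41700 and 268 reads and the highest ratio of those printed, 18.1 (16.02 to 20.44).

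The 536 sequences together held 3349224 reads in MARWI-IP, 3.04% of the library, and 32900 reads in total small RNA, 0.257%. Most were of moderate abundance: 276 had under 2000 MARWI-IP reads and 46 had over 10000. Their median was 1972.5 MARWI-IP reads, against 1925 for the other 11914 sequences of the same length range and read minimum. The median in total small RNA was 16 reads, against 134 for the others. In MARWI-IP the 536 therefore resembled the rest in abundance, and the small total counts set them apart, as the rule requires.

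At equal shares, 1000 MARWI-IP reads correspond to 116 total reads, and at the threshold of 8 to 14.01 reads. The total count behind a ratio was thus often small. In total small RNA 31 of the 536 sequences were not found, 48 had 1 to 3 reads, and 457 had 4 or more. Across all 12450 sequences the median ratio was 2.048, with 5% of them under 0.525 and 5% over 7.36. Among the 536, 250 lay between 8 and 12, 134 between 12 and 20, 73 between 20 and 50, and 79 at 50 or more. All those not found in total small RNA lie in the top class by construction, since 1000 reads against the added 0.5 read already give more than 50.

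The threshold of 8 cuts through a continuous range. Just inside it were the following 3 sequences, with positions 1, 5 and 10 in capitals as above.
Inside, 26 nt: TgggAagttGggattaaggaagacac
Inside, 31 nt: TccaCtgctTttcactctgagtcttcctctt
Inside, 27 nt: TgtgAagatGatagctaagggaacaga
They had 6998, 6517 and 2107 reads in MARWI-IP and 101, 94 and 30 reads in total small RNA, with ratios of 8.003, 8.005 and 8.019 after adding 0.5 read. Just outside were 3 others.
Outside, 29 nt: TcctTcactTtggctttttctgtactact
Outside, 29 nt: TtttActatCtctgttttctgtcagatgt
Outside, 29 nt: TgggTttgtGatggtgatgagcacggttg
Their MARWI-IP reads were 1825, 11669 and 1479 against 26, 169 and 21 total reads, with ratios of 7.99, 7.99 and 7.98. A change of 1 total read would carry each of the 6 across the threshold, and 291 of the 536 had a lower interval bound of at least 8.

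At the other end stood sequences with a well-counted yet very low level in total small RNA. The highest 5 ratios among those with at least 10 total reads belonged to the sequences below, printed with the same capitals.
Rank 46, 30 nt: TcagAcgaaTttcagcaagttgtttgtggg
Rank 26, 30 nt: TcatTacatAggcatgattgacaagcctgt
Rank 12, 31 nt: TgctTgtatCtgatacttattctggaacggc
Rank 94, 31 nt: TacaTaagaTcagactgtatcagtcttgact
Rank 107, 29 nt: TgggAtgtcTtgttggatcgcacttctca
The first had 10205 reads in MARWI-IP against 17 in total small RNA, a ratio of 69.7 (43.5 to 120). For the second the counts were 16267 and 33, with a ratio of 57.2 (40.7 to 83.2). The third had 32395 and 73 reads, a ratio of 51.5 (41.0 to 65.7), and is the best counted of the group. Rank 94 had 4845 MARWI-IP reads against 11 total reads, and rank 107 had 4347 and 10. Their ratios, 51.1 (28.5 to 102) and 50.5 (27.4 to 105), were the least precise because of the few total reads.

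Of the 31 sequences not found in total small RNA, the 3 with the most MARWI-IP reads were these.
Rank 74, 29 nt: TaggTgaatTgttctgaatgtcaaacgtg
Rank 163, 30 nt: TcggAtgtcTtgaatggtactgatatagtc
Rank 167, 29 nt: AgatTgtgaGgtctggctctgaccagtgg
The first had 6161 reads in MARWI-IP against 0 in total small RNA, which is at least 238-fold higher when 3 reads, the limit used here for a count of 0, are put in its place. The second had 2968 and 0 reads and was at least 115-fold higher, and the third had 2921 and 0 reads and was at least 113-fold higher. The lower ends of the 95% intervals, which are 2-sided and so somewhat wider, were 194, 93.3 and 91.9. No other read of 24 to 33 nt with the first 20 bases of the second or of the third was found in total small RNA either, against 5079 and 5309 MARWI-IP reads with those starts. For the second this count leaves out a sequence that differs from it at position 19, within those 20 bases. That sequence had 7289 reads in MARWI-IP against 454 in total small RNA. Total small RNA did hold reads with the start of the first, 1046 of them against 39293 in MARWI-IP, and these are described with the sequences that differ by 1 base.

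In length, the 536 sequences resembled the others. Sequences of 29 nt made up 36.6% of the 536 and 35.0% of the others, and those of 30 nt made up 34.1% and 33.3%. The 31-nt class was 8.40% of the 536 (6.19 to 11.1) and 10.9% of the others. The commonest lengths were thus the same in both sets, and the gap at 31 nt lay within the interval.

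The first base differed more. Sequences that start with U were 485 of 536, 90.5% (87.7 to 92.8), against 94.0% of the others. Those with G first were 23, 4.29% (2.74 to 6.37), against 1.502%, while A first made up 2.24% against 2.15% and C first 2.99% against 2.30%. The deficit of U was therefore made up mainly by G. It was concentrated at high ratios: of the 250 sequences with ratios of 8 to 12, 96.8% began with U and 0.8% with G, whereas of the 79 with ratios of 50 or more, 59 began with U, 74.7%, and 10 with G, 12.7%. All 10 of these began with GAU and they had 7 different starts, so they are not independent. Of the 23 with G first in the whole set, 12 began with GAU. In the class of 8 to 12 the interval for U first, 93.8 to 98.6, held the 94.0% of the others, so that gap lay within counting error. At ratios of 50 or more the interval, 63.6 to 83.8, lay below it. Over all sequences with ratios of 4 or more, which include the 536, the share of U-first sequences was 92.0%. The 96.8% thus did not extend to that wider set.

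At position 5, A was found in 39.4% of the 536 sequences (35.2 to 43.6) and 43.7% of the others. Position 5 held U in 35.4% (31.4 to 39.7) against 28.6%, and G in 7.09% (5.07 to 9.60) against 10.8%. The low share of G was not particular to the 536, since it was 6.98% among the other sequences with ratios of 4 to 8. Position 10 held A in 29.1% (25.3 to 33.2) of the 536 and in 30.4% of the others, a gap within counting error. Weighted by MARWI-IP reads, A at position 10 was 49.0% of the 536's reads, against 32.2% for the others, and A at position 5 was 27.1%, against 49.7%. Both values moved with the most-read start, which has U at position 5 and A at position 10: without it the values by reads were 24.8% for A at position 10 and 40.0% for A at position 5. Reads with U first were 94.6% of the 536's reads, and 92.1% without that start, against 93.4% for the others.

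The 3′ end also differed in composition. The last base was U in 33.4% of the 536 (29.4 to 37.6) and in 28.8% of the others, and C in 23.1% (19.6 to 26.9) and 29.6%. Among final triplets, UGU ended 49 of the 536 sequences, 9.14% (6.84 to 11.9), against 3.66% of the others. The triplet GUG ended 35, 6.53% (4.59 to 8.96), against 3.20%. At ratios of 50 or more, GUG ended 14 of 79 sequences, 17.7%, and UGU ended 13, 16.5%. These triplets were chosen after their values were seen, and sequences of 1 start or overlapping start share ends and are not independent.

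The 536 sequences had 443 different 5′ starts, taken as the first 20 bases. Of these starts 379 had 1 sequence and 64 had 2 or more, which together held 157 sequences, and 4 starts had 5. The ratio of a whole start, over all its reads of 24 to 33 nt, had a median of 7.84 for the 443 starts and 1.78 for the 7448 starts of the other sequences. It reached 8 in 213 starts, 48.1%, and was under 1 in 6. These ratios include the selected reads, and without them the 423 starts with at least 100 other MARWI-IP reads had a median of 4.42. Where the ratio of the whole start stayed under 8, the summed other reads of that start had a lower ratio than the selected ones. That order is fixed by the choice, since each selected length has a ratio of 8 or more, and is no result.

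Reads of 24, 25 and 33 nt entered the rule only through the library totals, so the counts of these lengths at a start are a measure that the rule left out, in the same pair of libraries. At least 100 such MARWI-IP reads were present for 137 of the 443 starts. Their ratio had a median of 4.68, against 1.83 for 2853 starts of the other sequences. It was 8 or more in 41 of the 137, 29.9%, against 87 of 2853, 3.05%. The minimum of 100 was set on MARWI-IP reads alone in both sets, which favours high ratios, and starts below it were left out. For the most-read start these lengths had 19517 reads in MARWI-IP against 188 in total small RNA, a ratio of 12.0, against 8.04 to 11.3 for its 5 selected lengths. Its 24-nt form, the shortest, had 5285 and 27 reads and a ratio of 22.7 (15.6 to 34.5). The excess in MARWI-IP at this start was thus present at each length of 24 to 30 nt.

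Other starts reached 8 at 1 length alone. The 30-nt sequence at rank 3 had a ratio of 13.8, but the whole start had 180591 MARWI-IP reads and 5044 total reads, a ratio of 4.16. Its 29-nt form had 15372 and 1073 reads, a ratio of 1.66 (1.56 to 1.77), and its 25-nt form had 4167 and 851, a ratio of 0.57 (0.53 to 0.61). So in MARWI-IP the 30-nt form made up most of the start, while in total small RNA 25, 28, 29 and 30 nt were of like abundance, with 851, 1087, 1073 and 1140 reads.

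A single added base at the 3′ end separated forms more sharply at rank 12. The capital marks the base by which the forms differ.
Rank 12, 31 nt: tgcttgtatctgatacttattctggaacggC
Same start, 30 nt: tgcttgtatctgatacttattctggaacgg
The 31-nt form had 32395 reads in MARWI-IP against 73 in total small RNA, and the 30-nt form had 55705 and 2546, a ratio of 2.54 (2.44 to 2.64). The 31-nt sequence at rank 10 likewise stood beside a 28-nt form with 10480 and 593 reads, a ratio of 2.051 (1.89 to 2.23). At rank 107 the low length lay between longer and shorter ones. The 29-nt form had 4347 MARWI-IP reads and 10 total reads, whereas the 28-nt form had 5452 and 203 and the 31-nt form had 2202 and 164. Over all 536 sequences, 382, 71.3%, were the most-read form of their start in MARWI-IP, against 62.9% of the others. In total small RNA 214 were, 39.9%, against 59.6%. The most-read form in MARWI-IP was not that of total small RNA in 173 of the 536, 32.3%, against 7.66% of the others, a contrast that the choice by ratio favours.

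Sequences were joined into groups where they shared a run of 16 bases on 1 strand. The 536 sequences formed 374 groups, of which 287 held 1 sequence and 87 held 2 to 8, with 249 sequences in the 87. In 51 groups the sequences had more than 1 start. The most-read start led a group of 8, in which its 5 lengths were joined by 3 forms that began 1, 2 or 3 bases further in. The capitals mark the bases by which the starts differ.
Leading form, 29 nt: TTGatggtaattggaagagcatcttgggt
Shorter by 1: TGatggtaattggaagagcatcttgggt
Shorter by 2: Gatggtaattggaagagcatcttgggt
Shorter by 3: atggtaattggaagagcatcttgggt
The form shorter by 1 had 2855 reads in MARWI-IP against 1 in total small RNA, a ratio of 331 with an interval of 59.4 to 13094. The form shorter by 2 had 1228 and 0, at least 47.5-fold higher, and the form shorter by 3 had 1144 and 3, a ratio of 44.3 (15.1 to 215). The lowest bound of the 3, 15.1, exceeded 9.93, the upper bound of the leading form. Inner forms with ratios under 8 could not enter the group, so the choice favours high ratios among them.

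The second group of 8 was led by a 30-nt sequence that is very rich in pyrimidines.
Leading form, 30 nt: ttctacatcctgtttctctgtttcttctgc
It had 13945 reads in MARWI-IP against 109 in total small RNA, a ratio of 14.8 (12.3 to 18.1). The ratios of its 8 forms, with 3 different starts, ran from 12.0 to 22.1 after adding 0.5 read. The intervals of the 8 forms overlapped, so no form stood apart from the others beyond counting error.

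The next group, of 7, was led by a 29-nt sequence with 22004 reads in MARWI-IP against 285 in total small RNA, a ratio of 8.96 (7.97 to 10.1). It held 4 forms that begin 3 bases upstream, with GAU, and these had far fewer total reads for their MARWI-IP reads. The capitals mark the added bases.
Leading form, 29 nt: ttctacgtctaactctgtcttctctagtc
Form beginning with GAU, 29 nt: GATttctacgtctaactctgtcttctcta
The second had 3661 and 1 reads, a ratio of 425 (76.2 to 16789). Another group of 7, named after its values were seen, contained the sequence at rank 46, and its ratios ran from 49.8 to 284. Every form in it was thus far from the threshold.

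Forms whose 5′ end lies inside another sequence were then counted over all 536. An upstream form was a sequence of any 3′ end that holds the first 20 bases after 1 to 5 further bases and has more MARWI-IP reads. One existed for 122 of the 536, 22.8%, and for 23.1% of the others, so such forms were not commoner in the set as a whole. They were common among the 51 sequences that do not begin with U, where 35 had one, 68.6%, against 30.2% of 709 such sequences among the others. In 34 of the 35 the upstream form began with U, and in 22 it began 1 base upstream. For the 214 such sequences among the others, it began with U in 150 and 1 base upstream in 101. At ratios of 50 or more, 18 of the 20 sequences without U first had such an upstream form. The ratio of the upstream form was below that of the selected one in all 35, with a median of 3.64, and was 8 or more in 3. Since the inner forms were chosen for a high ratio, that order is partly fixed by the choice.

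The pattern was plain for sequences beginning with GAU. Only 19 of the 12450 sequences began with GAU, 12 of them met the ratio, and 10 of the 12 had an upstream form, which began with U in every case and lay 1 base upstream in 9. Of the 10 sequences that began with GAUU, 9 met the ratio. The 12 had 8 different starts and the 9 had 5, so several are lengths of 1 start. This start was picked out after its values were seen. The 3 pairs below show it, with GAT or the added T in capitals.
Inner form A: GATtaaatgtcctgtcctctgagcaaat
Upstream form A: Tgattaaatgtcctgtcctctgagcaaat
Inner form B: GATttctacgtctaactctgtcttctct
Upstream form B: Tgatttctacgtctaactctgtcttctct
Inner form C: GATtactttctgatgtcagaactcaga
Upstream form C: Tgattactttctgatgtcagaactcaga
In pair A the inner form had 9975 reads in MARWI-IP against 3 in total small RNA, a ratio of 386 (132 to 1872), and the upstream form had 19392 and 1074, a ratio of 2.09. In pair B the inner form had 3466 and 1 reads, a ratio of 402 (72.2 to 15895), and the upstream form had 96675 and 1508, a ratio of 7.44. In pair C the inner form had 2604 and 0 reads, at least 101-fold higher, and the upstream form had 8662 and 537, a ratio of 1.87. So a 5′ end 1 base further in was well represented in MARWI-IP and almost missing from total small RNA. Reads beginning with GAU were not missing from total small RNA in general: over 26 to 32 nt they numbered 200866 in MARWI-IP against 20654 in total small RNA.

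Near-neighbours were sequences of equal length that differ by 1 base and were found in MARWI-IP. Any such neighbour existed for 76 of the 536, 14.2% (11.3 to 17.4), and for 13.1% of the others. A neighbour with at least 1000 MARWI-IP reads existed for 28, 5.22% (3.50 to 7.46), against 2.95% (2.65 to 3.27). A neighbour with 10 or more times the MARWI-IP reads existed for 7, 1.31% (0.527 to 2.67), against 9 of 11914, 0.0755% (0.0345 to 0.143). Of the 7, 4 resemble 1 abundant RNA and 2 of the other 3 carry the same change on shifted forms, so the 7 come from few sources. The set was thus like the rest in having any neighbour, and the excess of abundant neighbours rests on few sequences.

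The neighbours of at least 1000 reads gave 25 pairs, 13 by a transition and 12 by a transversion. In 4 pairs both sequences belong to the 536, and in 21 only 1 does. In those 21 the neighbour, under 8 by the rule, had a ratio of 1.23 to 6.42, with a median of 2.70. The pairs with the most reads are printed with the changed base in capitals, the selected sequence first.
Pair 1, selected: ttatagtaaaaacacAgaatcacacactgt
Pair 1, neighbour: ttatagtaaaaacacGgaatcacacactgt
Pair 2, selected: ctgtaactgacaaTctcttatgaccagtga
Pair 2, neighbour: ctgtaactgacaaActcttatgaccagtga
Pair 3, selected: tgtaactgacaaTctcttatgaccagtg
Pair 3, neighbour: tgtaactgacaaActcttatgaccagtg
Pair 4, selected: tactaacgatacagtagtgatctggtcGtg
Pair 4, neighbour: tactaacgatacagtagtgatctggtcCtg
Pair 5, selected: taggtgaattgttctgaatgtcaaacGtgt
Pair 5, neighbour: taggtgaattgttctgaatgtcaaacAtgt
Changes are written with the base of the selected sequence first, its position from the 5′ end, and the neighbour's base.

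Pair 1 (A16G) had 7896 reads of the selected sequence in MARWI-IP against 71 in total small RNA, beside 61320 and 2190 of the neighbour, with ratios of 12.9 (10.2 to 16.5) and 3.25 (3.11 to 3.39). In pair 2 (T14A) the selected sequence had 1219 and 17 reads and its neighbour 55467 and 5249. Pair 3 (T13A) is the same change on a form shifted by 1 base, with 1792 and 5 reads beside 25416 and 1946. In these 3 pairs the selected sequence was the scarcer one in both libraries. Its share of the pair was larger in MARWI-IP, which follows from the choice, since only the selected sequence met the ratio.

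In pair 4 (G28C) the selected sequence had 4842 reads in MARWI-IP against 2 in total small RNA, a ratio of 281 (77.8 to 2321), and the neighbour had 21053 and 955, a ratio of 2.56 (2.40 to 2.73). Pair 5 (G27A) set 6393 and 1 reads of the selected sequence beside 16981 and 613 of the neighbour. The 29-nt form of pair 5, printed above at rank 74, had 6161 and 0 reads beside 6129 and 263. The selected base was thus on 50.1% of the MARWI-IP reads of that pair and on none of its 263 total reads. The same was seen at A19G of rank 163, where 2968 and 0 reads stood beside 7289 and 454 of the neighbour.

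Among the 79 sequences with 0 to 3 total reads, 10 had a neighbour of at least 1000 MARWI-IP reads. These neighbours had 81 to 955 total reads and ratios of 1.44 to 3.37, and their MARWI-IP reads were 0.576 to 10.8 times those of the selected sequence. The other 69 had none. Among these 10, a changed base shared by sequences with different starts was found at a single place. The change A21T of 1 sequence and A2T of another lie at the same base of the 11 that the end of the first shares with the start of the second.
Upstream sequence: ttcctgaaaaagagagctttAaaaaactgg
Downstream sequence: tAaaaaactgggtcacggcattttctttc
The upstream sequence had 1616 reads in MARWI-IP against 0 in total small RNA, beside 4659 and 243 of its neighbour (A21T). The downstream one had 1759 and 0 reads, beside 1014 and 81 of its neighbour (A2T). At this place the changed base was thus read in MARWI-IP on sequences with different 5′ starts, each with 0 reads in total small RNA. They were matched by the 11 shared bases alone, without genome positions. These counts are of the exact sequences, so other total reads with this base are not covered. Per the labels MARWI-IP came from animals of 2 ages and total small RNA from 1 animal, and the part of the animals in this result was not tested. When each of the 76 sequences was summed with all its neighbours, the ratio remained 8 or more for 49 and fell below 8 for 27.

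Taking neighbours of at least 1000 reads and upstream forms as above, 37 of the 79 sequences with ratios of 50 or more had one or the other. A neighbour was found for 10 and an upstream form for 29, and 42 had neither. Of the 79 sequences, 66 had 0 to 3 total reads.

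Complementary 5′ ends were compared over the first 10 bases, the overlap left when a PIWI protein cuts a target. Of the 536 sequences 22 had a partner among the 12450, 4.10%, against 3.54% of the others, and of the 443 starts 17 had one, 3.84%, against 3.02% of the others. Both gaps lay within the intervals of 2.59 to 6.15 and 2.25 to 6.07. The 17 starts made 21 different pairs, in 2 of which both starts belong to the 536. The 23 partner starts had a median ratio of 2.50, and 1 of them reached 8. The 2 pairs with the most MARWI-IP reads on their scarcer side are printed with the complementary bases in capitals.
Pair 1, selected: TTGATGGTAAttggaagagcatcttgggt
Pair 1, partner: TTACCATCAAcatagaaactcggctcccca
Pair 2, selected: TATTTATTGAatgttcactcagtgcaaga
Pair 2, partner: TCAATAAATAtttgtagaatgcatgaatgc
The most-read start of the set is the selected side of pair 1. All its lengths had 1096862 reads in MARWI-IP against 13222 in total small RNA, a ratio of 9.63, and the partner start had 289027 and 8208, a ratio of 4.09. Both sides begin with U and so both have A at position 10, as 10 complementary bases require. Position 10 therefore does not tell the sides apart. In pair 2 the selected start had 37708 and 949 reads and the partner start 338499 and 14122, a ratio of 2.78. Without genome positions such matches include unrelated loci and repeats.

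The surroundings of each sequence were measured as all reads of 24 to 33 nt that share a run of 18 bases with it on the same strand. With the sequence's own reads included, which the rule chose to be high, the ratio had a median of 3.14 for the 536 sequences and 1.55 for the others. Without its own reads the median was 2.61 for the 536 and 1.47 for the others. Without the reads of any of the 536 it was 2.19 for the 536 and 1.54 for the others, so the gap in medians narrowed and did not close. With own reads included the ratio reached 8 for 46 of the 536, 8.58%, in 22 groups of overlapping sequences, and without the reads of any of the 536 it reached 8 for 17, 3.17%. With own reads included it was under 1 for 40 of the 536, so these selected sequences lay in stretches whose reads as a whole were scarcer in MARWI-IP than in total small RNA by share. Of the 79 sequences with ratios of 50 or more, 11 had stretches of 8 or more, 10 without the reads of any of the 536, and 69 had at least 100 total reads in the stretch.

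A few sequences came from stretches that were nearly missing from total small RNA throughout. They were named after their values were seen.
Stretch 1: tagatacacaggattggagcttcccttc
Stretch 2: taaaaagaaaacggaaaggttgtaggatg
Stretch 3: ttagagttgaaagggaaacgtctctgagt
Stretch 4: tgtgaggaatcagcgtttagaacagtgccc
The sequence of stretch 1 had 20307 reads in MARWI-IP against 1 in total small RNA, and its stretch had 30657 and 5. In stretch 2 the sequence had 2537 and 0 reads and the stretch 4025 and 0, and in stretch 3 the sequence had 1492 and 0 reads and the stretch 2643 and 0. Stretch 4 had 5319 and 2 reads around a sequence with 1289 and 0. For these the shortfall in total small RNA covered overlapping forms of all lengths and not 1 form alone. Rank 26, with 16267 and 33 reads in a stretch of 17645 and 75, was not of this kind, since the rest of its stretch had 1378 and 42 reads, a ratio of 3.76.

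Of named RNAs, 6 of the 536 sequences were related to the 5′ part of tRNA-Glu-TTC, a transfer RNA that carries glutamate. The full 29-nt fragment was itself the most-read sequence of MARWI-IP but was not selected, with 2177351 reads in MARWI-IP against 45392 in total small RNA, a ratio of 5.57. Of the 6 selected forms, 5 begin 1 to 3 bases further in, and 3 of the 6 also differ by a base. The capital marks the place of the differing base.
Full fragment, not selected: tcccacatggtctagcggttaggattcct
Shorter by 2: ccaCatggtctagcggttaggattcct
Shorter by 2, other base: ccaTatggtctagcggttaggattcct
The form shorter by 2 had 4734 reads in MARWI-IP against 27 in total small RNA, a ratio of 20.4 (13.97 to 30.9). Its neighbour by C4T had 1568 and 16 reads, a ratio of 11.4 (6.98 to 19.95). The 6 together had 13478 reads in MARWI-IP against 90 in total small RNA. Since these were chosen for a ratio of 8 or more, their place above the full fragment is fixed by the choice.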

How the data were processed

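Both small RNA tables hold read counts per distinct sequence as deposited by the authors, with no normalization, no gene name and no genome position. The deposited lengths are 24 to 33 nt for MARWI-IP and 20 to 51 nt for total small RNA. Bowtie, TopHat and Cufflinks are named in the submitters' processing notes without versions or roles, and how reads were trimmed and filtered, and against which build, is not given in the sources used here. Per the labels, both kinds of library were made with the same small RNA kit. The testis RNA-seq table of the series was not used. Ratios given with an interval are plain ratios of shares with an exact binomial interval, and all others have 0.5 read added to the total count.

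The sequences, lists and comparisons were chosen with earlier results of these data known. Named were the 10 sequences with the most MARWI-IP reads, the 5 highest ratios with 10 or more total reads, the 3 most-read sequences with 0 total reads, the 3 on either side of the threshold, the leaders of the 3 largest groups, 5 neighbour pairs and sequences of known RNAs. Of the 536 sequences 4 resemble an RNA that is not reported here: they are counted and not printed, 1 of them at rank 6. The counting was tested on simulated reads. Matching to tables of known RNAs and genome positions was not done, and tRNA-Glu-TTC was recognised by sequence from an earlier result. Counts were handled in pandas 2.3.3 under Python 3.11.15, intervals came from scipy 1.17.1, and folding from RNAfold 2.7.2.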

Additional observations from a re-analysis of the deposited data

How the results depend on the processing

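The count of 536 sequences was 512 to 643 with 1 read added, with at least 3 total reads, with shares over 26 to 32 nt, without the 10 most abundant sequences or over all reads of the total library. It was 2098 at a ratio of 4 or more, 193 at 16 or more, and 291 where the lower interval bound reached 8. With at least 500, 2000 or 5000 MARWI-IP reads it was 1065, 260 or 88, which are 4.37%, 4.36% and 4.37% of the sequences tested. Counted per 5′ start, 332 of 13105 starts reached 8, 2.53%, and counted over reads sharing 18 bases, a setting chosen after seeing the data, 46 sequences did. The share starting with U was 94.6% by MARWI-IP reads, 80.8% at ratios of 16 or more and 74.7% at 50 or more, the last a setting chosen after seeing the data. The share with A at position 5 was 27.1% by reads and 44.5% at ratios of 4 or more. A at position 10 made up 49.0% by reads, 24.8% by reads without the most-read start (also chosen after seeing the data) and 34.2% at ratios of 50 or more. The share of 29 or 30 nt, 70.7%, was 78.2% by reads, 78.7% by reads without that start, 66.3% at ratios of 16 or more and 64.6% at 50 or more. Starts numbered 386 to 444 under the other definitions. Of the 76 sequences with a neighbour, 28 had one of at least 1000 reads, 7 had one with 10 times their reads, and 49 kept a ratio of 8 or more with neighbours summed. Except for the fewer or more sequences a stricter or looser threshold leaves, the causes were not tested. Matching to known RNAs was not run for want of a table. No paired analysis was possible because each group was deposited as 1 column. Total depth limits the ratios: a sequence with 1000 MARWI-IP reads rests on 14.01 or fewer total reads, and 79 of the 536 on 3 or fewer.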

Other observations

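Predicted folding of the sequences on their own was computed with RNAfold. The median minimum free energy was -1.6 kcal/mol for the 536 sequences and -1.7 kcal/mol for the others. No fold was predicted, an energy of 0, for 22.8% of the 536 and 15.6% of the others. Within each set the value moved with the ratio in opposite directions. Among the others it was -2.9 kcal/mol at ratios under 0.5, -2.0 kcal/mol at 1 to 2 and -1.0 kcal/mol at 4 to 8. Among the 536 it was -1.2 kcal/mol at ratios of 8 to 12, -1.45 kcal/mol at 12 to 20, -2.8 kcal/mol at 20 to 50 and -2.4 kcal/mol at 50 or more. By the median the least folded were thus those with ratios of 4 to 12, on both sides of the threshold. By the share with no fold they were those of 4 to 20, with 29.3% at 4 to 8, 26.4% at 8 to 12 and 27.6% at 12 to 20. Sequences of 1 start share most of their bases, and no test was made.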
